A study of Mus musculus with 2 samples.

Results

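The genes described are *Zbp1* and 5 partners of its death pathway, *Ripk1*, *Ripk3*, *Mlkl*, *Casp8* and *Fadd*. They were taken by symbol, all 6 were present among the 32285 genes counted by snRNA-seq, the sequencing of RNA from single nuclei, in the mouse hippocampus. There was 1 library of PS19 mice, which carried 1 copy of the human P301S tau transgene and both intact copies of *Zbp1* (PS19+/- Zbp1+/+), and 1 library of PZKO mice, which carried the same tau transgene and no functional *Zbp1* (PS19+/- Zbp1-/-). Hippocampi of 5 males, killed at 9 months of age, went into each library, and no label ties a nucleus to an animal. The PS19 transgene is driven by the prion protein promoter, and which exons of *Zbp1* were deleted is not given in the sources used here.

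ZBP1 is a sensor of left-handed Z-form DNA and RNA that is itself induced by interferon. It binds RIPK1 and RIPK3 through a shared motif, the RIP homotypic interaction motif. RIPK3 phosphorylates MLKL, which then breaches the plasma membrane in the lytic death called necroptosis, whereas FADD recruits caspase-8, which cleaves RIPK1 and RIPK3 and turns the same complex towards apoptosis. In the brain, microglia are the resident macrophages, and the interferon response of a subset of them is a known feature of tauopathy.

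The unit was the unique molecular identifier (UMI), which counts captured RNA molecules once each. After filtering, 9590 PS19 nuclei with 100729375 UMIs and 9307 PZKO nuclei with 151995959 UMIs were kept, with medians of 5849.5 and 9015 UMIs per nucleus, and 47 barcodes occurred in both libraries. Nuclei were sorted into 14 classes by marker genes. The microglia, 944 nuclei in PS19 and 748 in PZKO, had their highest level of 8 of 9 markers in PS19 and 9 of 9 in PZKO among the classes, and the exception was *Selplg*. A level is given in CPM, the UMIs of a gene per 1000000 UMIs of the class, a ratio as the log2 ratio of PZKO over PS19, and a 95% interval is exact and covers counting error only. Because each genotype had a single library, differences have no replicate check and no test was made.

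In the annotation of GRCm38 (GENCODE M21), *Zbp1* lies on chromosome 2 from 173206612 to 173218923, *Ripk1* on chromosome 13 from 34002363 to 34037147, *Ripk3* on chromosome 14 from 55784995 to 55788865, *Mlkl* on chromosome 8 from 111311797 to 111338177, *Casp8* on chromosome 1 from 58795374 to 58847503 and *Fadd* on chromosome 7 from 144577318 to 144582463. Of the genes counted here, *Ripk1* shares part of its span with *Serpinb6a* and *Fadd* with *Faddos*, both on the opposite strand. Annotated genes that were not counted also overlap. On the same strand these are *Gm17084* for *Ripk1* and *Gm37760* for *Casp8*, and on the opposite strand *Gm17083* for *Ripk1* and *Gm45712* for *Mlkl*. Whether their RNA added to the counts was not tested. The spans run from 3.87 kb for *Ripk3* to 52.1 kb for *Casp8*. Intronic RNA is captured from nuclei, so levels of different genes were compared per kb of span.

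RefSeq promoters, from 250 bases before to 50 bases after the start site in GRCm38.p6, were at hand for 5 of the 6 genes in 6 windows. They were searched on both strands for the core of the interferon-stimulated response element (GAAA, any 2 bases, GAAA), found in 3.44% of 32851 promoters, for the gamma-activated site TTCNNNGAA, found in 8.30%, and for the NF-kB site GGGANTTCC, found in 1.68%. The window at the downstream start site of *Ripk1* held 3 matches, 1 of the response element and 2 of TTCNNNGAA, of which 1 overlaps the response element. The other 5 windows, including those of *Casp8*, *Fadd*, *Ripk3* and *Mlkl*, held none. The *Ripk1* window and that of *Mlkl* are shown because the levels of these genes in interferon-responding microglia are set side by side further on. They lie at chr13:34002624-34002923 on the plus strand and at chr8:111338156-111338455 on the minus strand, and capitals mark the matched letters.
Ripk1: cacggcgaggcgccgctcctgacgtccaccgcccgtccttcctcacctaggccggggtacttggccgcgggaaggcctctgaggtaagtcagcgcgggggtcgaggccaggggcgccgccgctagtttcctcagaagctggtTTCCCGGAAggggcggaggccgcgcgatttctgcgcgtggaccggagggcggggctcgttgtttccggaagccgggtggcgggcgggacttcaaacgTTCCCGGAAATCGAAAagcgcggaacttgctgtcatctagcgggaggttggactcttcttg
Mlkl: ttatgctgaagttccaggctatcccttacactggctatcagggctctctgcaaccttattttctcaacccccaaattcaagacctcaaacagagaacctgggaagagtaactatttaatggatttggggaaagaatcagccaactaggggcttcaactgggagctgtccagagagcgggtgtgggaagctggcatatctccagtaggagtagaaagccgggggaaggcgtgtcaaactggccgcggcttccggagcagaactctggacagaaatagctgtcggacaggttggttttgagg

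The deleted gene was the first to be checked. In all nuclei together the PS19 library held 92 *Zbp1* UMIs (0.913 CPM) and the PZKO library 38 (0.250 CPM). The log2 ratio was −1.87 (−2.45 to −1.31). Microglia, which held the largest share of the *Zbp1* UMIs, made up 3.22% of all UMIs in PS19 and 2.16% in PZKO. The part of this mix in the pooled ratio was not tested. The lower level in PZKO follows the genotype labels, but it was not 0. Since the counts are sums per gene, whether the remaining UMIs came from inside or outside the deleted part cannot be told.

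The largest share of the *Zbp1* UMIs lay in microglia. Microglia held 48 of the 92 PS19 UMIs (52.2%, 95% interval 41.5% to 62.7%) while they held 3.22% of all UMIs of that library. In PZKO they held 19 of 38 (50%, 33.4% to 66.6%). The level in microglia was 14.8 CPM in PS19 (10.9 to 19.6) and 5.78 CPM in PZKO (3.48 to 9.03), so that PZKO microglia kept 0.391 of the PS19 level, a log2 ratio of −1.35 (−2.20 to −0.56). A *Zbp1* UMI was found in 41 of 944 PS19 microglia (4.34%, 3.13% to 5.85%) and in 15 of 748 PZKO microglia (2.01%, 1.13% to 3.29%). With each nucleus thinned to 2000 UMIs, which left out 125 and 61 shallower nuclei, the shares were 2.51% and 1.04%. At 4000 UMIs they were 4.70% and 2.20%, among the deeper nuclei only. That depth is above the PS19 microglial median of 3304 UMIs and near the PZKO median of 4150.5. In excitatory neurons, which were taken as the background class, the share was 0.0732% in PS19 and 0.102% in PZKO, at medians of 18902 and 28424 UMIs per nucleus against 3304 and 4150.5 in microglia. The microglial shares were above this background in both libraries.

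Outside microglia, *Zbp1* was counted in border and vascular cells and, at lower levels, in astrocytes and inhibitory neurons. PS19 macrophages had 5 UMIs in 29 nuclei (60.7 CPM, 19.7 to 142), of which 3 lay in 1 nucleus. PZKO macrophages had 0 UMIs in 22 nuclei, where the upper bound of the log2 ratio, 0.42, does not leave out equal levels. PS19 T cells had 3 UMIs in 28 nuclei and PZKO T cells 1 in 32. Endothelial cells of PS19 had 9 UMIs (8.41 CPM) and those of PZKO 5 (3.82 CPM), with a log2 ratio of −1.14 whose interval, −3.06 to 0.59, includes 0. In astrocytes the 14 UMIs of PS19 (1.71 CPM) stood against 2 in PZKO (0.180 CPM), and the log2 ratio was −3.26 (−6.44 to −1.13). Inhibitory neurons had 5 UMIs in 3 PS19 nuclei, of which 3 lay in 1 nucleus, and 0 in PZKO, where the upper bound of the log2 ratio was −0.70. Without the nucleus with the most *Zbp1* UMIs in each library, the counts were 2 and 0. The upper bound was then 1.59, which does not leave out equal levels. Ependymal cells stood the other way, with 1 UMI in PS19 and 3 in PZKO, and a log2 ratio of 1.73 (−1.91 to 7.44). In PS19 the levels of macrophages, T cells, microglia and endothelial cells followed each other in that order, and the intervals of neighbours in the order overlap. Oligodendrocyte precursors, Cajal-Retzius cells, pericytes and mural cells, and choroid plexus cells had 0 *Zbp1* UMIs in both libraries, which for choroid plexus cells allows up to 1.30 CPM in PS19 and 2.39 CPM in PZKO.

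**Figure D1:**
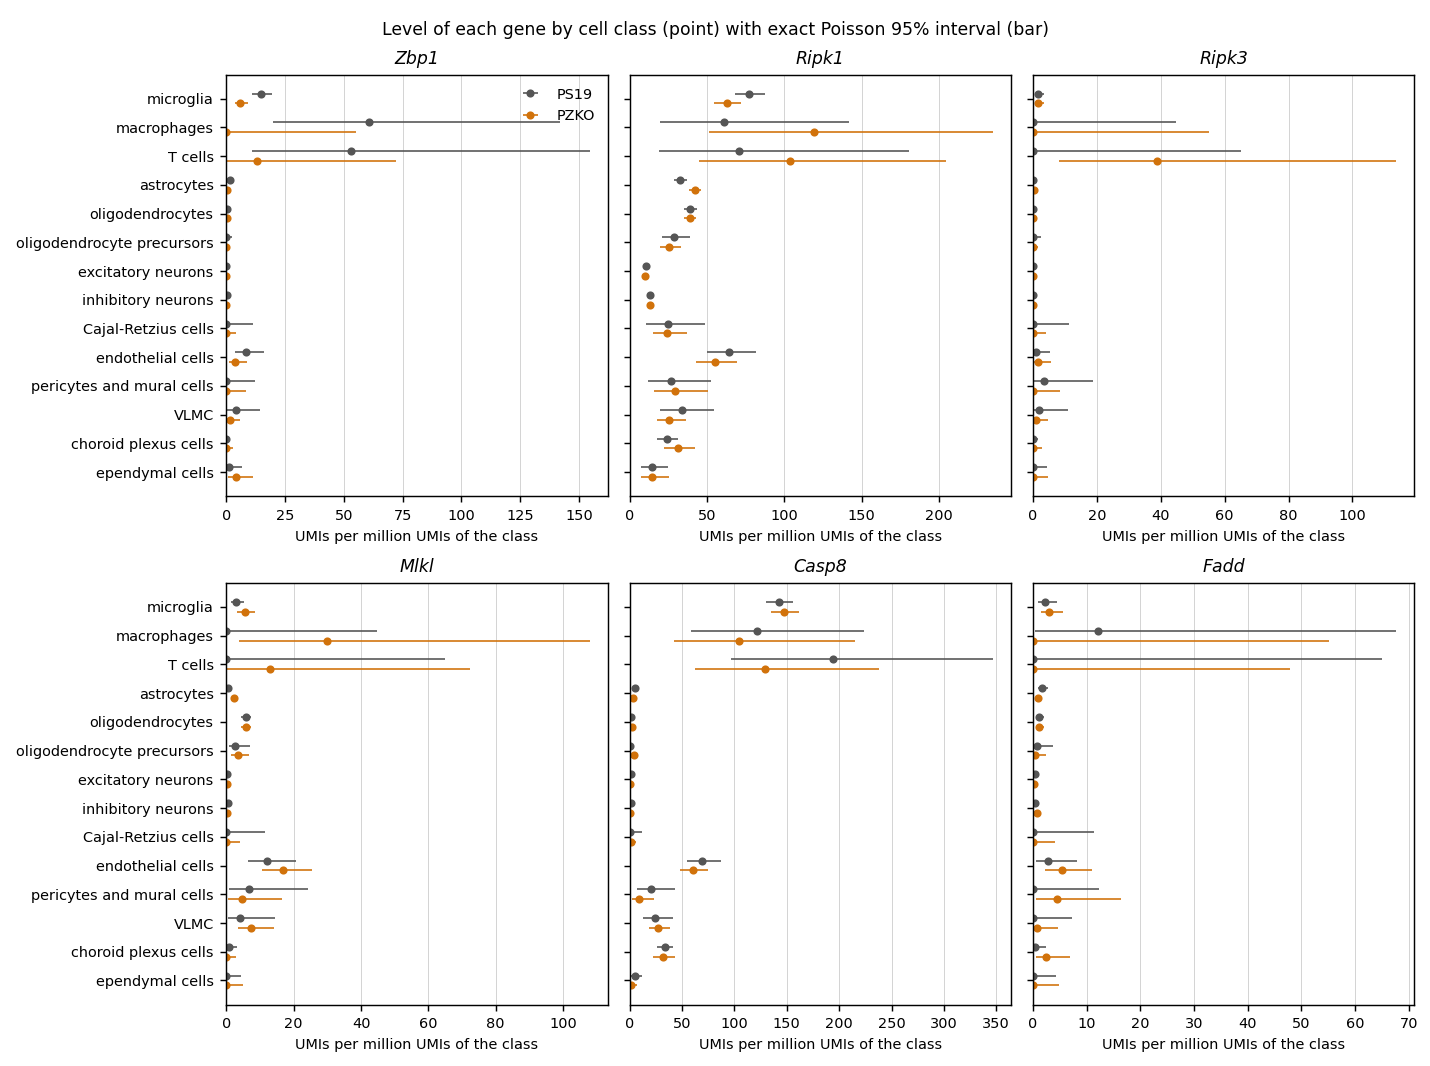
Levels of the 6 genes in 14 cell classes, in CPM on linear axes that differ between panels. Points are the PS19 library (grey) and the PZKO library (orange), and bars are exact Poisson 95% intervals, which cover counting error only. *Casp8* stands at 143 and 148 in microglia, *Ripk1* is seen in every class and *Ripk3* is near 0 in all large classes.

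*Ripk1*, which encodes a kinase that ZBP1 binds, was the most evenly distributed of the 6 genes, with UMIs in all 14 classes of both libraries. It had 1900 UMIs in PS19 and 2611 in PZKO over all nuclei. Among the large classes its level in PS19 was highest in microglia (77.3 CPM, 68.1 to 87.5), followed by endothelial cells (64.5 CPM, 50.2 to 81.6), oligodendrocytes (39.2 CPM, 35.3 to 43.5) and astrocytes (32.7 CPM, 28.9 to 36.9), and lowest in excitatory neurons (10.5 CPM, 9.71 to 11.4). The intervals of microglia and endothelial cells overlap, as do those of oligodendrocytes and astrocytes, while that of excitatory neurons lies below all of these.

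Between the libraries *Ripk1* went in different directions in microglia and astrocytes. In microglia 251 UMIs were counted in PS19 and 207 in PZKO (77.3 and 63.0 CPM), and the log2 ratio was −0.30 (−0.57 to −0.024). In astrocytes the counts were 267 and 469 (32.7 and 42.1 CPM), and the log2 ratio was 0.36 (0.14 to 0.59). Both intervals leave out 0, and they do not overlap each other. When each of 6 microglial sub-clusters described further on was left out in turn, the microglial log2 ratio ran from −0.36 to −0.22, and its interval took in 0 in 3 of the 6 cases. The other large classes showed less: the log2 ratio was −0.0082 in oligodendrocytes (−0.22 to 0.20), −0.090 in excitatory neurons (−0.24 to 0.059), 0.046 in inhibitory neurons (−0.25 to 0.34) and −0.23 in endothelial cells (−0.73 to 0.27). By share of nuclei, *Ripk1* was seen in 18.9% of PS19 astrocytes and 28.1% of PZKO astrocytes, and in 5.76% (4.45% to 7.32%) and 7.76% (6.29% to 9.45%) after thinning to 2000 UMIs. In microglia the unthinned shares, 19.6% in PS19 and 22.9% in PZKO, run against the levels, and the thinned shares of 12.6% and 11.95% lie within each other's intervals, so no order was read from them.

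*Ripk3*, the kinase of the necroptotic branch, was at the edge of detection. It had 13 UMIs in 9590 PS19 nuclei and 18 UMIs in 9307 PZKO nuclei, that is 0.129 and 0.118 CPM. Microglia held 5 UMIs in each library (1.54 and 1.52 CPM), with a log2 ratio of −0.018 (−2.14 to 2.10), an interval that allows a PZKO level from 0.227 to 4.29 times that of PS19. In T cells 0 UMIs in PS19 stood against 3 UMIs in 2 nuclei in PZKO. Oligodendrocytes had 0 UMIs in 2575 PS19 and 2251 PZKO nuclei, which allows up to 0.323 and 0.287 CPM. Per kb of span, the *Ripk3* level in PS19 microglia was 0.398 CPM, close to the 0.419 CPM of *Fadd* and under the 2.22 CPM of *Ripk1*. Its span is the shortest of the 6.

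*Mlkl*, the membrane-breaching effector, had its largest group of UMIs in oligodendrocytes. They held 53 of 101 UMIs in PS19 (52.5%, 42.3% to 62.5%) and 60 of 172 in PZKO (34.9%, 27.8% to 42.5%), against 9.21% and 6.88% of all UMIs. Their level was 5.71 CPM in PS19 and 5.74 CPM in PZKO, and the log2 ratio was 0.0061 (−0.55 to 0.57). In endothelial cells the level was 12.2 CPM in PS19 (13 UMIs) and 16.8 CPM in PZKO (22 UMIs), with a log2 ratio of 0.47 (−0.58 to 1.58). Neither class showed a difference beyond counting error.

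In astrocytes 5 *Mlkl* UMIs in PS19 stood against 24 in PZKO (0.612 and 2.15 CPM), and the log2 ratio was 1.81 (0.40 to 3.56). A single PZKO nucleus held 6 of the 24 UMIs, and it also held 10 UMIs of the endothelial markers, of which the median astrocyte of that library held 0. Whether endothelial RNA in that nucleus accounts for its *Mlkl* was not tested. Without the nucleus with the most *Mlkl* UMIs in each library, the counts were 4 and 18 and the log2 ratio 1.72 (0.12 to 3.74). Microglia held 9 *Mlkl* UMIs in PS19 and 18 in PZKO (2.77 and 5.48 CPM), with a log2 ratio of 0.98 whose interval, −0.25 to 2.32, includes 0. The PZKO level in microglia was thus close to that in oligodendrocytes.

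*Casp8*, which encodes the protease at the branch point of apoptosis and necroptosis, was the most abundant of the 6 genes in microglia, where 463 UMIs were counted in PS19 and 485 in PZKO. These UMIs were 60.0% (56.4% to 63.5%) and 61.7% (58.2% to 65.1%) of all *Casp8* UMIs. The microglial level was 143 CPM in PS19 (130 to 156) and 148 CPM in PZKO (135 to 161), and the log2 ratio was 0.049 (−0.14 to 0.24). The interval allows a level in PZKO from 0.909 to 1.18 times that of PS19. A *Casp8* UMI was found in 34.4% of PS19 and 41.8% of PZKO microglia, and after thinning to 2000 UMIs in 22.4% (19.6% to 25.4%) and 23.7% (20.6% to 27.1%). T cells (194 and 130 CPM), macrophages (121 and 105 CPM), endothelial cells (69.2 and 60.4 CPM) and choroid plexus cells (33.4 and 31.9 CPM) also held it, each with an interval of the log2 ratio that includes 0. Per kb of span, the *Casp8* level in PS19 microglia was 2.74 CPM, against 2.22 CPM for *Ripk1*, 1.20 CPM for *Zbp1* and 0.105 CPM for *Mlkl*.

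Summed over all nuclei, *Casp8* was lower in PZKO, from 772 and 786 UMIs, at 7.66 and 5.17 CPM and a log2 ratio of −0.57 (−0.71 to −0.42). Microglia, which hold most of these UMIs, made up 3.22% of all UMIs in PS19 and 2.16% in PZKO. Within microglia the interval of the ratio includes 0. Microglia held a like part of the *Casp8* UMIs in both libraries, 60.0% in PS19 and 61.7% in PZKO. The summed *Casp8* level of the nuclei outside microglia was thus lower in PZKO as well. What lowered the sums was not tested.

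**Figure D2:**
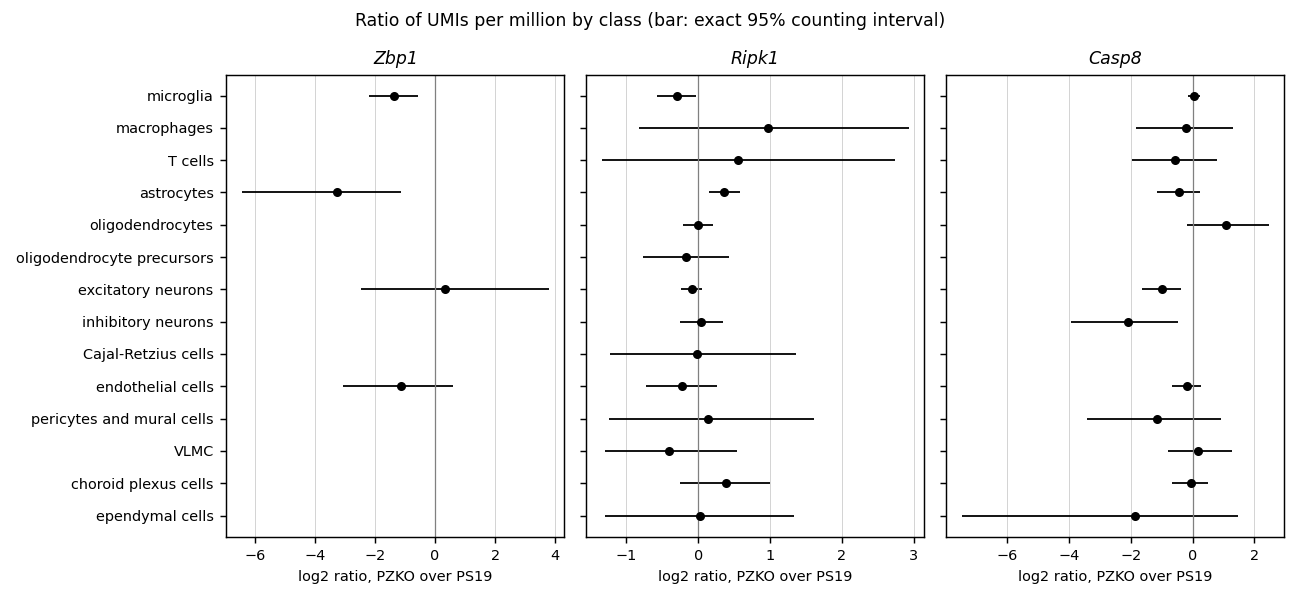
Log2 ratio of PZKO over PS19 for *Zbp1*, *Ripk1* and *Casp8* in each class where both libraries have UMIs and at least 5 UMIs were counted in all. Points are ratios of CPM, bars are exact 95% intervals for counting error, and axes differ between panels. *Zbp1* lies below 0 in microglia and astrocytes, *Ripk1* below 0 in microglia and above 0 in astrocytes, and *Casp8* close to 0 in microglia.

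Neurons showed a different kind of *Casp8* signal. In excitatory neurons PS19 had 50 *Casp8* UMIs and PZKO 40 (0.848 and 0.426 CPM), and the log2 ratio was −0.995 (−1.63 to −0.37). A single PS19 nucleus held 35 of the 50 UMIs and a single PZKO nucleus 24 of the 40, and both nuclei were in the CA3-like cluster, the pyramidal cells of the CA3 field. Without these nuclei, 15 and 16 UMIs remained and the log2 ratio was −0.58 (−1.69 to 0.54). Each of the nuclei held 1 UMI of the microglial markers, the median of the class, and 0 UMIs of the endothelial markers. Of the 19 *Casp8* UMIs of PZKO oligodendrocytes 11 lay in 1 nucleus, and all 9 of the PZKO oligodendrocyte precursors lay in 1 nucleus, with 0 and 2 UMIs of the microglial markers. In inhibitory neurons the counts were 12 and 5, and the log2 ratio was −2.08 (−3.94 to −0.48), with at most 2 UMIs in a nucleus. With doublets kept, this ratio was −0.081.

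*Fadd*, the adaptor that brings caspase-8 to the complex, was spread thinly, at 65 UMIs over all PS19 nuclei and 89 over all PZKO nuclei (0.645 and 0.586 CPM). Excitatory neurons held 20 and 24 of these UMIs, astrocytes 14 and 10, and microglia 7 and 10. The log2 ratio was −0.41 in excitatory neurons (−1.33 to 0.52), −0.93 in astrocytes (−2.27 to 0.34) and 0.50 in microglia (−1.04 to 2.13), and all of these intervals include 0. *Fadd* shares part of its span with the antisense gene *Faddos*, and no setting for strand is given in the sources used here.

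Within the microglia, 7 sub-clusters were drawn from variable genes with the 6 genes and the rest of the pathway left out. In 1 of them, with 157 PS19 and 57 PZKO nuclei (16.6% and 7.62% of the microglia), oligodendrocyte and astrocyte genes such as *Mobp*, *Mbp* and *Ndrg2* led. Relative to the rest of the microglial cluster, its mean log2 level was 0.45 for oligodendrocyte markers and 0.11 for microglial markers. The mean was 0.33 for astrocyte and 0.24 for excitatory neuron markers, and its median of 2361 UMIs per nucleus was the lowest of the 7 sub-clusters. The microglial markers were thus not below their level in the rest of the cluster. Where the RNA of the other classes came from was not tested. The sub-cluster was kept among the microglia. Without it, the microglial log2 ratio was −1.24 (−2.11 to −0.42) for *Zbp1*, −0.32 (−0.61 to −0.035) for *Ripk1* and 0.092 (−0.10 to 0.29) for *Casp8*. In a further sub-cluster the interferon-stimulated marker list led, with 22 PS19 and 50 PZKO nuclei. Its size depended on the setting, and all values by sub-cluster come from the main clustering only. In PS19 these interferon-led microglia had 18 *Zbp1* UMIs in 11 of 22 nuclei (192 CPM, 114 to 303), and the other 922 microglia had 30 UMIs in 30 nuclei (9.52 CPM), a log2 difference of 4.33 (3.40 to 5.22). The *Zbp1* level in the interferon-led nuclei was 21.8 CPM in PZKO, from 5 UMIs in 5 of 50 nuclei, a log2 ratio of −3.14 (−4.92 to −1.66) between the libraries. In the other microglia it was 4.58 CPM, from 14 UMIs in 10 of 698 nuclei, and the log2 ratio was −1.05 (−2.08 to −0.095). Most of the *Zbp1* that PZKO microglia kept, 13 of 19 UMIs in 9 nuclei, lay in 1 sub-cluster led by disease-associated genes, where PS19 had 12 UMIs in 12 nuclei. There the levels were 17.6 CPM in PS19 and 18.9 CPM in PZKO, with a log2 ratio of 0.11 (−1.14 to 1.37), and without this sub-cluster the microglial ratio was −2.60 (−4.14 to −1.34). The other sub-cluster led by disease-associated genes had 4 *Zbp1* UMIs in 213 PS19 nuclei (5.08 CPM) and 0 in 106 PZKO nuclei. In PZKO 4 of the 7 sub-clusters had 0 *Zbp1* UMIs.

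The summed interferon-stimulated list was also higher in microglia that held a *Zbp1* UMI. In PS19 it was 3595 CPM in 41 nuclei with a *Zbp1* UMI (3310 to 3899) and 1147 CPM in 903 nuclei without one (1109 to 1185). In PZKO it was 6235 CPM in 15 nuclei (5712 to 6793) and 1779 CPM in 733 nuclei (1733 to 1826). The disease-associated list went in opposite directions, at 6099 against 7138 CPM in PS19 and 5544 against 3864 CPM in PZKO for nuclei with and without a *Zbp1* UMI. The homeostatic list stood at 2951 against 3112 CPM in PS19 and at 1955 against 3282 CPM in PZKO. Of the PS19 nuclei with a *Zbp1* UMI 11 of 41 were interferon-led, and of the PZKO nuclei 5 of 15. Nuclei with a UMI were also deeper, with medians of 3732 against 3291 UMIs in PS19 and 5691 against 4135 UMIs in PZKO, and the part of depth was not tested.

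The partners were compared between interferon-led and other microglia in the same way. For both libraries together *Ripk1* had 18 UMIs in interferon-led microglia (55.6 CPM) and 440 UMIs in the others (70.9 CPM), a log2 difference of −0.35 (−1.12 to 0.33). In PS19 alone, from 2 and 249 UMIs, the *Ripk1* difference was −1.89 (−4.95 to −0.024). In PZKO alone, from 16 and 191 UMIs, it was 0.15 (−0.68 to 0.89). *Mlkl* had 7 UMIs (21.6 CPM) in 4 interferon-led nuclei and 20 UMIs (3.22 CPM) in the others, a log2 difference of 2.75 (1.26 to 4.05), and 6 of these 7 UMIs came from 3 PZKO nuclei. In PZKO alone the *Mlkl* difference was 2.73 (1.03 to 4.26), and in PS19 alone, from 1 and 8 UMIs, it was 2.07 (−3.40 to 4.97). For *Casp8* it was 0.94 (0.29 to 1.52) in PS19 and −0.53 (−1.19 to 0.060) in PZKO. Of the promoter windows printed above, that of *Ripk1* holds 3 matches and that of *Mlkl* none. *Casp8* in interferon-led microglia was 266 CPM in PS19 (25 UMIs) and 104 CPM in PZKO (24 UMIs), and the log2 ratio was −1.35 (−2.22 to −0.48). In the sub-cluster led by homeostatic genes *Casp8* stood the other way, at 140 CPM (66 UMIs) in PS19 and 208 CPM (170 UMIs) in PZKO, and the log2 ratio was 0.57 (0.15 to 1.003). In the sub-cluster led by oligodendrocyte and astrocyte genes it was −0.94 (−1.97 to −0.028), and in the remaining 4 it ran from −0.23 to 0.091 with intervals that include 0. Without the homeostatic sub-cluster the microglial *Casp8* ratio was −0.16 (−0.38 to 0.052).

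**Figure D3:**
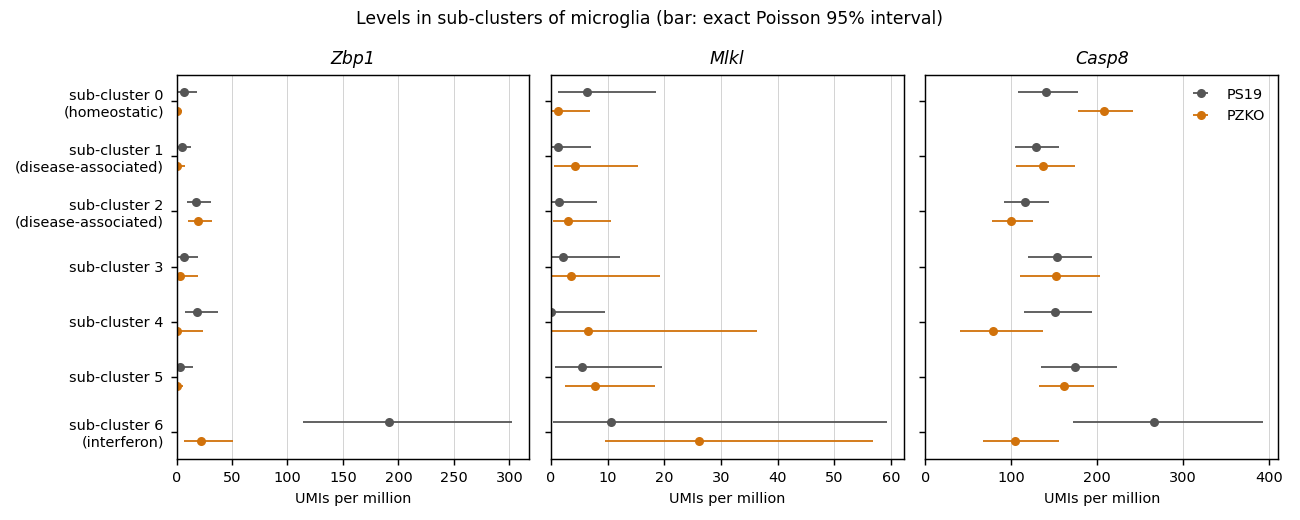
Levels of *Zbp1*, *Mlkl* and *Casp8* in 7 sub-clusters of microglia, in CPM of the sub-cluster, with the leading marker list in brackets where there was one. Grey points are PS19, orange points PZKO and bars exact Poisson 95% intervals. The interferon-led PS19 nuclei stand at 192 for *Zbp1*, and all other *Zbp1* points are at or below 21.8.

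**Figure D4:**
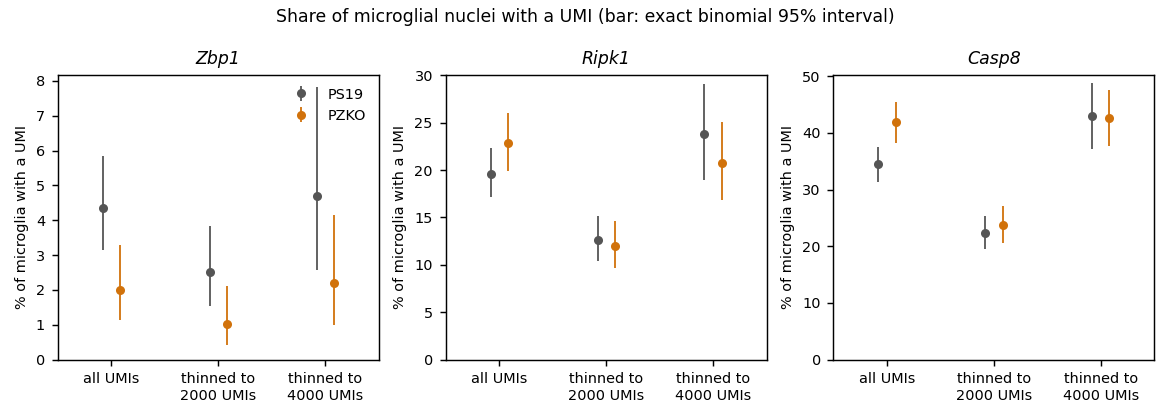
Percentage of microglial nuclei with at least 1 UMI of *Zbp1*, *Ripk1* and *Casp8*, from all UMIs and after thinning each nucleus to 2000 or 4000 UMIs. Nuclei shallower than the thinned depth are left out. Grey is PS19, orange is PZKO and bars are exact binomial 95% intervals. The *Zbp1* point of PZKO is the lower one at each depth, with overlapping intervals before and after thinning. For *Ripk1* and *Casp8* the thinned intervals of the libraries overlap.

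To place the 6 genes in their pathway, 71 further genes of 7 groups were followed in microglia, and a gene was taken as past the fold when its log2 ratio was beyond 0.5 in either direction and it had at least 100 UMIs over both libraries. Of all 77 genes, 61 reached 100 UMIs, among them *Ripk1* and *Casp8*, and neither of these was past the fold. Of all 8420 genes with that many UMIs, 9.2% were past the fold. Of the 61 pathway genes, 2 were past the fold as higher in PZKO (3.28%, against 2.99% of all genes) and 4 as lower (6.56%, against 6.21%). The median log2 ratio was −0.0084 for the pathway and −0.018 for all genes. The shares were near the background. The single groups have few measured genes each, so their counts past the fold are a description only.

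The 4 genes past the fold as lower in PZKO were 2 cytokines and 2 components of death and inflammation complexes. *Il1b*, the inflammasome cytokine interleukin-1 beta, had 86 UMIs in PS19 and 18 in PZKO, and its log2 ratio was −2.27 (−3.10 to −1.53). *Tnf*, the ligand that starts RIPK1 signaling at its receptor, had 105 and 67 UMIs and a log2 ratio of −0.67 (−1.13 to −0.21), or −1.69 without the interferon-led nuclei. In PS19 these cytokine counts lay for the most part in the sub-cluster that kept *Zbp1* in PZKO, which held 62 *Il1b* UMIs in PS19 and 4 in PZKO, and 66 and 8 *Tnf* UMIs. Without it the log2 ratio was −0.80 (−1.86 to 0.21) for *Il1b* and 0.58 (−0.030 to 1.20) for *Tnf*. *Casp1*, the inflammasome protease, stood at −0.52 (−0.85 to −0.19), and *Sharpin*, a subunit of the linear ubiquitin ligase that restrains RIPK1, at −0.52 (−0.93 to −0.12). Both lie at the threshold, and were inside it with TMM factors (−0.48 for each). *Hsp90aa1*, a chaperone of the RIP kinases and MLKL, stood just inside the fold at −0.46 (−0.64 to −0.29). The inflammasome group as a whole had 9 of 11 genes measured, with a median log2 ratio of 0.080. Of these, 2 were lower (all genes: 6.21%) and 0 higher (all genes: 2.99%).

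All 9 genes of the interferon branch were measured, and the median log2 ratio was 0.19. Past the fold, 1 was higher in PZKO (all genes: 2.99%) and none was lower (all genes: 6.21%). *Irf7*, an interferon-induced transcription factor, had 49 and 99 UMIs and a log2 ratio of 0.997 (0.49 to 1.52). *Irf1*, another transcription factor induced by interferon, stood at 0.49 (0.13 to 0.85). *Irf3*, a transcription factor activated by TBK1, stood below 0 at −0.32 (−0.60 to −0.045). *Adar*, the RNA-editing enzyme that limits Z-form RNA, stood at 0.18 (−0.046 to 0.41) and *Tlr3*, a receptor of double-stranded RNA, at 0.065 (−0.22 to 0.35). Without the interferon-led nuclei, *Irf7* stood at 0.38, *Irf1* at 0.28 and *Adar* at 0.0075.

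In the checkpoint on RIPK1, 17 of 18 genes were measured and the median was −0.028. Past the fold, 1 was higher (all genes: 2.99%) and 1 was lower (all genes: 6.21%). *Birc3*, a ubiquitin ligase of RIPK1, had 229 and 343 UMIs and a log2 ratio of 0.57 (0.32 to 0.81), or 0.49 with a stricter filter on nuclei, and *Nfkbia*, the NF-kB inhibitor, stood at −0.13 (−0.46 to 0.20). The 7 measured caspase-8 partners and executioners (of 9) had a median of 0.11, and the 8 MLKL cofactors and membrane repair genes one of −0.092, with *Itpk1*, an inositol phosphate kinase, at 0.45 (0.17 to 0.73). None of these 15 genes was past the fold in either direction (all genes: 9.2%). Of the 13 receptors and adaptors, 7 were measured and 1, *Tnf*, was past it, and of the 3 other RIP kinases 2 were measured and none was.

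**Figure D5:**
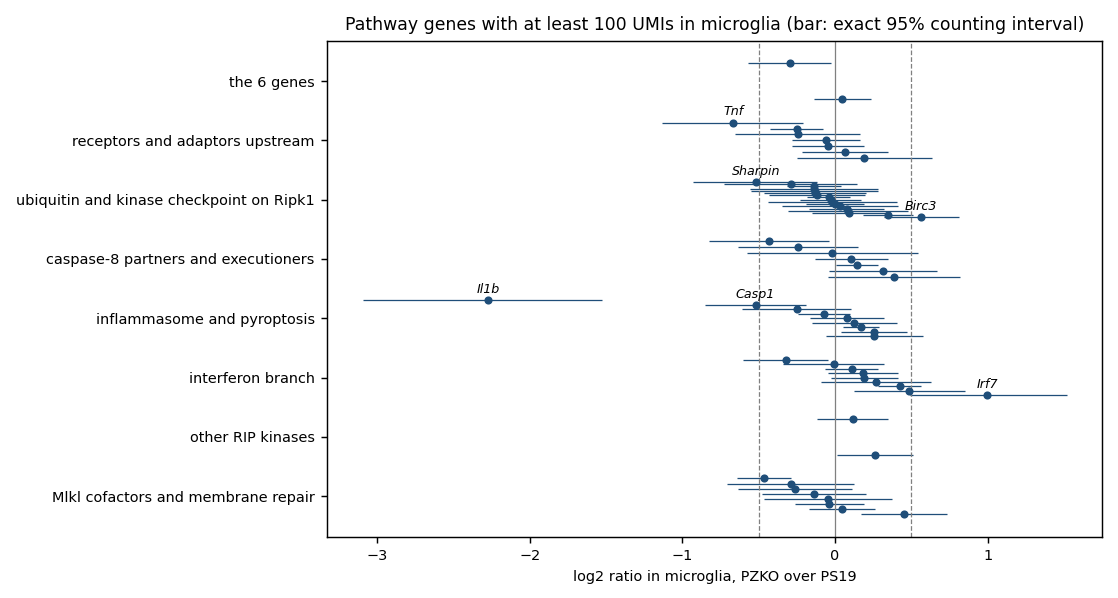
Log2 ratio of PZKO over PS19 in microglia for the pathway genes with at least 100 UMIs, by group. Points are genes, bars exact 95% intervals for counting error, and dashed lines a log2 ratio of 0.5 in either direction. The 6 named genes are those past the lines, with *Il1b* at −2.27 and *Irf7* at 0.997 as the outermost.

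The same genes were followed in astrocytes, oligodendrocytes and excitatory neurons. There, none with at least 100 UMIs in the class was past the fold as higher in PZKO. *Mlkl* in astrocytes, at 1.81 from 5 and 24 UMIs, was below this minimum. Astrocytes had 0 of 53 measured genes higher and 2 lower (3.77%, against 2.0% of 11859 genes higher and 8.93% lower, 10.9% in all). These were *Tnfrsf1a*, the tumor necrosis factor receptor, at −0.62 (−0.91 to −0.34) and *Nfkbia* at −0.54 (−0.70 to −0.38). Oligodendrocytes had 0 of 47 higher and 4 lower (8.51%, against 2.11% of 10726 genes higher and 7.59% lower, 9.7% in all), and excitatory neurons 0 of 59 higher and 4 lower (6.78%, against 3.55% of 15978 genes higher and 7.69% lower, 11.2% in all). *Tlr3* was among the lower genes in both, at −0.66 (−1.15 to −0.19) in oligodendrocytes and −0.66 (−1.04 to −0.28) in excitatory neurons, and so was *Hsp90aa1*, at −0.68 (−0.76 to −0.60) and −0.54 (−0.60 to −0.49). Oligodendrocytes of the 2 libraries lay in different clusters, with 1094 PS19 and 665 PZKO nuclei in the first, 456 and 1111 in the second and 1025 and 475 in the last. With the same weight for each cluster, *Tlr3* stood at −0.47 and *Hsp90aa1* at −0.57 in oligodendrocytes, and at −0.60 and −0.58 in excitatory neurons. *Aim2* and *Irf1*, lower in excitatory neurons at −0.63 and −0.59, were then inside the fold at −0.28 and −0.24. In the same class *Casp1* moved from 0.055 to −0.69 and *Ikbke* from 0.37 to 0.60, both past the fold. *Aim2* in oligodendrocytes moved from −0.499 to −0.57. The counts past the fold thus depend on the mix of clusters. The *Ripk1* and *Mlkl* ratios in oligodendrocytes were then 0.063 and 0.082.

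Across the 14 classes, the genes whose levels on the log2(CPM + 1) scale were most like those of *Zbp1* in PS19, by Pearson's r among 16642 genes, were *Gm4070* (0.96), *H2-T24* (0.95), *Gm26740* (0.95), *Sp110* (0.95) and *Rap1b* (0.94). For *Casp8*, with both libraries summed and 18585 genes, they were *Il10rb* (0.96), *Gm12185* (0.96), *Rsbn1l* (0.96), *Pank2* (0.96) and *Crk* (0.95). *Ripk1* was nearest to *Npc2* (0.95), *Pak2* (0.94), *Phf20* (0.94), *Eif3a* (0.94) and *Mettl9* (0.93). *Mlkl* was nearest to *Irak3* (0.92), *Arhgdia* (0.92), *Tmem50a* (0.91), *Rsu1* (0.91) and *Haus5* (0.90), and *Fadd* to *Gm20456* (0.92), *Gid8* (0.91), *Myd88* (0.91) and *Ttc1* (0.91). *Ripk3* had too few UMIs to be ranked. The classes share libraries and differ in depth, so these values describe the profiles only.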

How the data were processed

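The authors isolated nuclei from snap-frozen hippocampi, built 10x Genomics 3′ libraries and counted UMIs per gene and nucleus on the mm10 reference. The deposited values are these whole-number counts, for the barcodes called as nuclei, without normalization. The submitters' processing notes name Cell Ranger 7.0.1 and the matrix headers 8.0.1. The methods state both that hippocampi were pooled and that individual animals were processed separately.

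Nuclei with under 600 UMIs, under 300 genes or over 5% mitochondrial UMIs were left out, as in the study, and doublets were removed by Scrublet score (0.8% per 1000 nuclei). Both libraries were clustered together in scanpy 1.11.5 (2000 variable genes, 30 components, 20 neighbours, leidenalg 0.10.2, resolution 1) without the pathway genes, and clusters were named from marker lists. Unnamed nuclei were 5.08% in PS19 and 4.62% in PZKO. UMIs were summed per class. Ratios have exact conditional binomial intervals, sums exact Poisson intervals and shares exact binomial intervals. The limit of a count of 0 was 3 counts over the class. The ratio and thinning steps were tested on simulated counts. For the ratios these were drawn as Poisson sums per gene. They leave out the clumping of UMIs in single nuclei, so they do not test the intervals against it.

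The 6 genes were described in every class. Of the pathway groups, the 5 highest and 5 lowest ratios in microglia among genes with at least 100 UMIs were named, with *Irf3*, *Tlr3*, *Nfkbia* and *Adar*, and genes past the fold in other classes were named after their values were seen. A few genes that this rule names are not reported here. Members and lists were chosen with earlier results of these data known. Alternatives were edgeR 4.0.16 TMM factors, DESeq2 1.42.0 size factors, means over nuclei, ambient subtraction, other filters, doublets kept, other clusterings, equal cluster weights, macrophages added, other UMI minimums and thinning. The analyses without single nuclei, without each microglial sub-cluster and with reweighted interferon-led microglia or oligodendrocyte clusters were added after seeing the data.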

Additional observations from a re-analysis of the deposited data

How the results depend on the processing

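No paired analysis was possible because each genotype had 1 library, and for the same reason no library could be left out. The 43 log2 ratios with at least 10 UMIs gave 483 values under the alternatives. Of these, 472 stayed within the counting interval of the main value without turning the sign of a main ratio beyond 0.5. Another 6 turned such a sign, inside or outside the interval, and 5 left the interval without doing so. The *Zbp1* ratio in microglia ran from −2.60 (without the sub-cluster that kept *Zbp1* in PZKO) to −1.06, that of *Ripk1* from −0.39 to −0.22 in microglia and from 0.36 to 0.46 in astrocytes, and that of *Casp8* in microglia from −0.16 (without the homeostatic sub-cluster) to 0.12. Weighting each nucleus equally turned the sign for *Casp8* in excitatory neurons (0.052) and oligodendrocytes (−0.033), *Mlkl* in excitatory neurons (−0.10) and *Fadd* in endothelial cells (−1.21), and a stricter filter (1000 UMIs, 500 genes, 1% mitochondrial UMIs) turned it for *Mlkl* in VLMC (−0.14) and *Casp8* in pericytes and mural cells (5.9e-05). With doublets kept, *Casp8* stood at −0.33 in excitatory and −0.081 in inhibitory neurons, and with ambient RNA subtracted at 4.10 in oligodendrocytes. The cause was not tested. Without the nucleus with the most *Casp8* UMIs in each library, the *Casp8* ratio was −0.58 (−1.69 to 0.54) in excitatory neurons. In oligodendrocytes it was 0.24 (−1.47 to 2.05), and both intervals include 0. Values by microglial sub-cluster were not recomputed under the alternatives. The sub-cluster highest in interferon markers had 22 PS19 and 50 PZKO nuclei in the main clustering. It had 20 and 51 with doublets kept and 24 and 53 without a filter. Under the stricter filter it had 49 and 64, and with each library first clustered on its own 64 and 113.

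Of the pathway genes in microglia, the count higher in PZKO was 4 of 71 with a minimum of 20 UMIs (all genes: 884 of 12851). It was 4 of 74 with a minimum of 1 UMI (3358 of 19812) and 4 of 61 with equal weights of nuclei (302 of 8420). It was 1 of 60 without the interferon-led nuclei (221 of 8253) and 1 of 61 with these weighted equally (232 of 8420). Under the stricter filter it was 0 of 58 (163 of 7588), where *Irf7* (0.84) fell short of 100 UMIs and *Birc3* stood at 0.49. The count lower in PZKO was 7 of 71 and 8 of 74 with the minimums of 20 and 1 UMI (all genes: 1526 of 12851 and 4484 of 19812). It was 2 of 61 with TMM factors (420 of 8420), with equal weights of nuclei (519 of 8420) and with doublets kept (526 of 8473). In these last 3 settings *Casp1* and *Sharpin* were inside the fold. With 6 microglial sub-clusters left out in turn, the higher count ran from 1 to 4 and the lower count from 2 to 3, of 58 to 60 genes. Among all genes, 7653 to 8113 in these cases, 218 to 257 were higher and 427 to 523 lower. TMM factors moved the median of all genes in microglia to 0.018. Under the stricter filter *Tnf* stood at −1.94.

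Thinned to 2000 UMIs, the shares in PS19 and PZKO microglia were 2.51% and 1.04% for *Zbp1*, 12.6% and 11.95% for *Ripk1*, and 22.4% and 23.7% for *Casp8*. Thinned to 4000 UMIs, which keeps only the deeper nuclei, they were 4.70% and 2.20%, 23.8% and 20.8%, and 42.9% and 42.6%. Depth limits *Ripk3* and *Fadd*, and *Mlkl* outside oligodendrocytes and endothelial cells, where counts are too low to show any but large differences.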

Other observations

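The 6 genes were seldom counted in the same nucleus. At least 1 UMI of any of them was found in 21.8% of nuclei in the PS19 library and in 26.0% in the PZKO library, and among microglia in 49.6% and 55.2%. In PS19 no nucleus held UMIs of more than 3 of the genes, and in PZKO 1 nucleus held 5. *Ripk1* and *Casp8* were the most frequent pair in microglia, together in 69 of 944 PS19 and 80 of 748 PZKO nuclei. They are also the genes counted in the most microglia, *Ripk1* in 185 and 171 and *Casp8* in 325 and 313. No link between them is read from this. The kinase and the effector of necroptosis, *Ripk3* and *Mlkl*, were together in 0 of 9590 PS19 nuclei, which allows a share of up to 0.0313%, and in 2 of 9307 PZKO nuclei. *Zbp1* and *Ripk3* were together in 0 PS19 and 3 PZKO nuclei. *Ripk3* was counted in only 11 PS19 and 17 PZKO nuclei, *Mlkl* in 91 and 131 and *Zbp1* in 77 and 33. Whether the numbers of shared nuclei differ from those that sparse counts alone would give was not tested. With so few nuclei, no link within these pairs is read from them. The PZKO nuclei were deeper, and absence of a UMI is not absence of expression.

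In CA3-like neurons 0 *Mlkl* UMIs in PS19 stood against 10 in PZKO, which lay in 4 nuclei, 4 of them in 1 nucleus, whereas CA1-like neurons had 2 and 1 and dentate granule-like neurons 2 and 0. *Ripk1* levels in these neurons were 13.5 and 12.7 CPM in CA3-like, 9.86 and 7.80 CPM in CA1-like and 10.8 and 11.1 CPM in dentate granule-like neurons of PS19 and PZKO. In each of the 3 kinds, the Poisson intervals of the libraries overlap.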
